A study of Mus musculus with 8 samples.

Results

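The matrix proteases of the MMP, ADAMTS and ADAMTS-like (ADAMTSL) families and their TIMP inhibitors were followed in primary mouse tendon stem cells (TSCs) exposed to a diabetes-like medium. Members were all genes of the expression table whose symbol opens with Mmp, Adamts, Adamtsl or Timp and goes on with a digit. The rule gave 51 of 19301 genes: 23 MMP, 19 ADAMTS, 5 ADAMTSL and 4 TIMP genes. TSCs had been released with collagenase from the patellar tendon of mice (the study's animals were C57BL/6J) and were cultured for 4 days either in low glucose medium with the solvent DMSO or in high fat, high glucose (HFHG) medium, which holds more glucose and the saturated fatty acid palmitic acid. Each medium had 4 RNA-seq libraries. The study's methods call them biological replicates without saying whether they came from separate animals, so the p-values below measure the spread between these libraries. HFHG changes glucose and fat together, and their effects cannot be told apart here. The age of the donor mice of these cultures was not given in the sources used here.

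MMPs are zinc endopeptidases that are made as inactive proenzymes and, between them, cut nearly every component of the extracellular matrix. The collagenases among them open the collagen triple helix, the gelatinases digest the unwound chains, the stromelysins cut proteoglycans and fibronectin and activate other MMPs, and the membrane-type MMPs act at the cell surface. ADAMTS enzymes are secreted relatives with thrombospondin repeats, some of which cut the large proteoglycans aggrecan and versican or trim procollagens, whereas ADAMTSL proteins carry the repeats without a protease domain. TIMPs block the active site of MMPs, and Timp3 also that of some ADAMTS enzymes. In tendon, a tissue built mainly of type I collagen, these families serve fibril turnover and repair.

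Expression was given in FPKM, read fragments scaled by gene length and by a read total of the library, so that levels of different genes can be compared per length. This total lay between 34308108 and 37362725 reads. Genes with at least 0.5 FPKM in at least 4 of 8 libraries were tested with limma on log2(FPKM + 0.1), and a gene was called changed at a Benjamini-Hochberg adjusted p below 0.05 over 11710 genes. Differences below are HFHG minus low glucose on that log2 scale, with their standard error (SE), and means are given with the SD of 4 libraries. The first principal component, with 81.0% of the variance, separated the media, and low glucose replicate 4 stood apart on the second, with 4.18%. Tendon and mesenchymal markers were present, although Scx, the transcription factor of tendon cells, was low at 2.27 ± 0.558 FPKM in HFHG against 1.45 ± 0.336 FPKM in low glucose. All 9 tendon markers were tested, of which 6 rose, Mkx and Egr1 fell and Dcn did not pass the test, and of the 6 mesenchymal markers 5 rose and Cd44 fell. Scx and Tnmd were among the tendon markers that rose, and Scx overlapped between the media (1.53 to 2.88 FPKM in HFHG against 0.983 to 1.76 FPKM in low glucose). By contrast, the study's qPCR of TSCs in these media reported lower Scx and Tnmd in HFHG and no significant change of Mkx. Macrophage markers were present too: 11 of 12 were tested, 9 fell in HFHG, Cd14 rose, Ptprc did not pass the test, and Cd163 was near 0. Their summed level was 1771 to 1818 FPKM in HFHG against 1940 to 2029 FPKM in low glucose, and Lyz2 made up most of it. Fewer cells of a type and less RNA per cell cannot be told apart in such bulk libraries.

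Of the 51 members, 34 passed the filter on low values and 17 did not. HFHG changed 28 of the 34 tested members (82.4%), against a background of 64.8% of all tested genes. Higher levels were called for 18 members, where 34.0% of all tested genes rose, and lower levels for 10, where 30.8% of all tested genes fell. The remaining 6, Adamts4, Adamts6, Adamts7, Mmp8, Mmp27 and Timp1, did not pass the test. The FPKM of the media did not overlap for 28 of the 34 members, against 59.2% of all tested genes. With a further limit of more than 1 on the log2 scale, 5 members rose (Adamtsl1, Mmp16, Mmp15, Adamts12 and Adamtsl4; background 3.68%) and 0 fell (background 1.63%), although 10 fell by limma at the adjusted p alone. The median difference was 0.24 over the tested members and 0.02 over all tested genes. The 2 members with the highest levels, Mmp13 and Mmp3, moved in opposite directions.

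**Figure D1:**
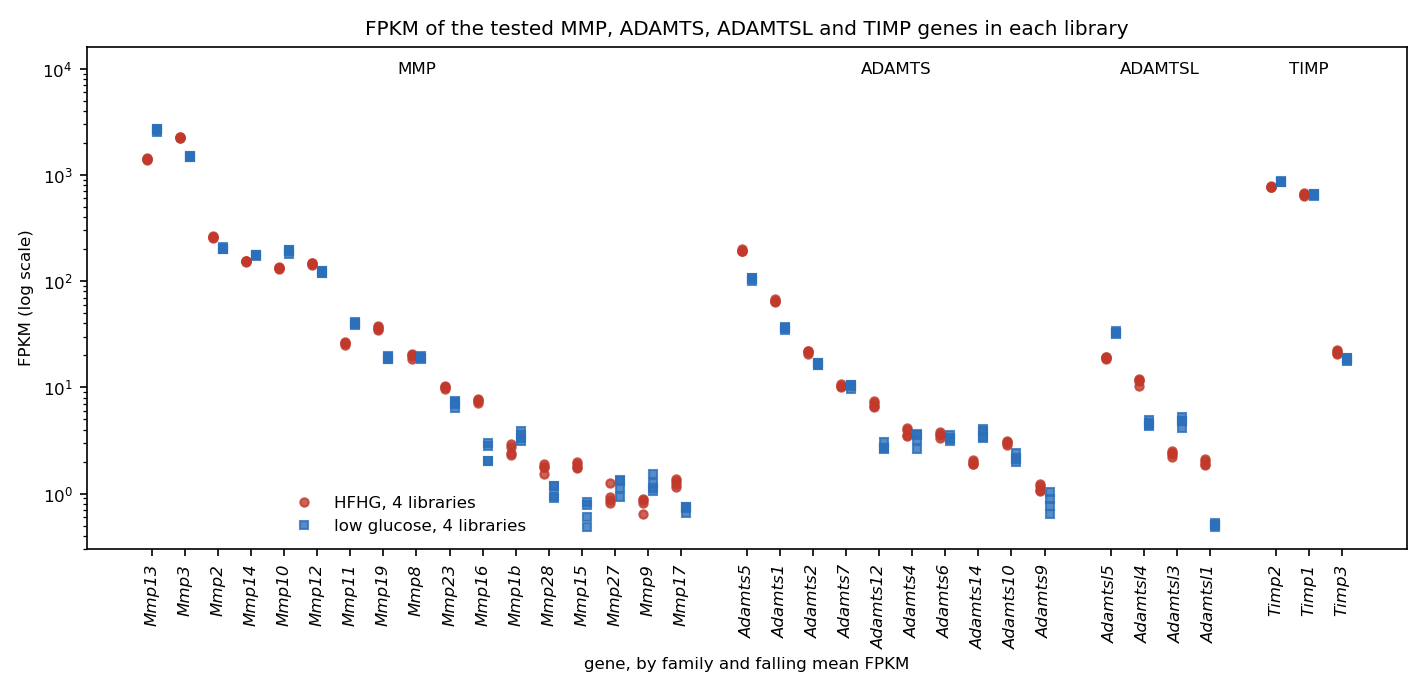
FPKM (log axis) of the 34 tested members in the 4 HFHG libraries (circles) and the 4 low glucose libraries (squares), by family and falling mean. Mmp13 and Mmp3 exchanged the first rank, and Timp1 and Timp2 lay far above Timp3 in both media.

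Mmp13, the main collagenase of rodents, and Mmp3, stromelysin, together made up most of the summed MMP FPKM and changed places. Mmp13 (chr9:7272514-7283333, GRCm38) measured 1421, 1394, 1425 and 1446 FPKM in HFHG replicates 1 to 4 and 2640, 2730, 2683 and 2556 FPKM in low glucose. Every HFHG library lay well below every low glucose library. The mean fell from 2652 ± 73.9 to 1421 ± 21.5 FPKM, a difference of -0.90 (SE 0.02, limma adjusted p = 5.89e-12). Of the 11 tested macrophage markers, 9 were lower in HFHG as well, while Cd14 rose and Ptprc did not pass the test. Of the 5 osteoblast and 5 chondrocyte markers checked, only Col10a1 passed the filter. Col10a1 rose from 0.641 ± 0.163 to 0.941 ± 0.1975 FPKM, by 0.50 (limma adjusted p = 0.034), with overlap. The part of such cells in the Mmp13 level was not tested. Mmp3 (chr9:7445822-7455975) moved the other way, with 2291, 2216, 2261 and 2205 FPKM in HFHG against 1472, 1487, 1495 and 1512 FPKM in low glucose. Its groups did not overlap either, and its mean rose from 1491 ± 16.6 to 2243 ± 40.0 FPKM, by 0.59 (SE 0.02, limma adjusted p = 6.61e-11).

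As a share of the summed FPKM of the 23 MMP genes, Mmp13 took 53.8% ± 0.884 in low glucose and 31.8% ± 0.455 in HFHG. Mmp3 took 30.2% ± 0.571 and 50.2% ± 0.562 in the same order. The ratio of Mmp3 to Mmp13 lay between 0.545 and 0.592 in the low glucose libraries and between 1.53 and 1.61 in the HFHG libraries. Both genes together kept 84.0% ± 0.316 of the sum in low glucose and 82.0% ± 0.352 in HFHG, and the sum of the other 21 MMP genes was 789 ± 10.9 and 802 ± 9.94 FPKM. The share of both together thus moved far less than that of each gene. These shares and ratios are descriptions, and a ratio within a library shows unequal change of its members.

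Both genes lie in the MMP cluster of chromosome 9, in which 10 MMP genes stand within 427 kb (chr9:7272514-7699585) in the order Mmp13, Mmp12, Mmp1b, Mmp3, Mmp1a, Mmp10, Mmp8, Mmp27, Mmp20 and Mmp7. Of its 7 tested genes, Mmp3 and Mmp12 rose, Mmp13, Mmp10 and Mmp1b fell, and Mmp8 and Mmp27 did not pass the test. The 71.4% that changed lay near the 64.8% of all tested genes. Genes that rose and fell alternated along the cluster, as Mmp12 stands between Mmp13 and Mmp1b. Promoters of this cluster are a textbook case of control by AP-1, the Fos and Jun dimer. The RefSeq promoter windows (GRCm38.p6, 250 bases before to 50 after the start) were therefore searched for TGACTCA and TGAGTCA, which are each other's reverse complement and so cover both strands. Shown here are the 150 bases before the start of the 5 cluster genes that changed, with the AP-1 letters in capitals, to set the promoters of genes that rose (Mmp3, Mmp12) beside those of genes that fell (Mmp13, Mmp10, Mmp1b).
Mmp3, chr9:7445672-7445821, plus strand: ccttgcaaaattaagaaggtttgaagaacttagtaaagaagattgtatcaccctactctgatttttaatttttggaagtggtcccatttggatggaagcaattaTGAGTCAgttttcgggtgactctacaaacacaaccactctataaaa
Mmp12, chr9:7347224-7347373, plus strand: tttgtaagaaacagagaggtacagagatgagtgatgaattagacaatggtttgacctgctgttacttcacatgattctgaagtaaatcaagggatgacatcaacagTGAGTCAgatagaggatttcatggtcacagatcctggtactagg
Mmp13, chr9:7272364-7272513, plus strand: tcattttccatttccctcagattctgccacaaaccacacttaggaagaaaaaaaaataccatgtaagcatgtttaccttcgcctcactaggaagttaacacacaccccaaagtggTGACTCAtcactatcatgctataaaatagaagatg
Mmp10, chr9:7502192-7502341, plus strand: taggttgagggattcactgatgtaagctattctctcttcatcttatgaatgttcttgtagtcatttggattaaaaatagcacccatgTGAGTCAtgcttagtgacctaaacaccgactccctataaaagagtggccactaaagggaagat
Mmp1b, chr9:7388027-7388176, minus strand: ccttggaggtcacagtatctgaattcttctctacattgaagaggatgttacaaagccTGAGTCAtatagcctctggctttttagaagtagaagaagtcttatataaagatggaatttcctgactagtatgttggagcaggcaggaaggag

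The AP-1 letters began 46 bases before the start of Mmp3, 35 before Mmp13, 63 before Mmp10 and 93 before Mmp1b. In Mmp12 they were found only at the second of its listed starts, 44 bases before it, and that window is the one printed. Mmp13 carried TGACTCA and the other 4 carried TGAGTCA. Mmp1a and Mmp7, both below the filter, also had a match, 73 and 63 bases before the start, so that 7 of the 10 cluster genes held one. No match stood in the windows of Mmp8, Mmp27 and Mmp20, and 0 of the 26 other members with a window held one (15 members had no window in the table). Of all 27025 genes with a window, 5.95% held the letters in at least 1 window. The letters were thus shared by cluster genes that rose and cluster genes that fell. A match is a description of the sequence, and no binding was measured.

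**Figure D2:**
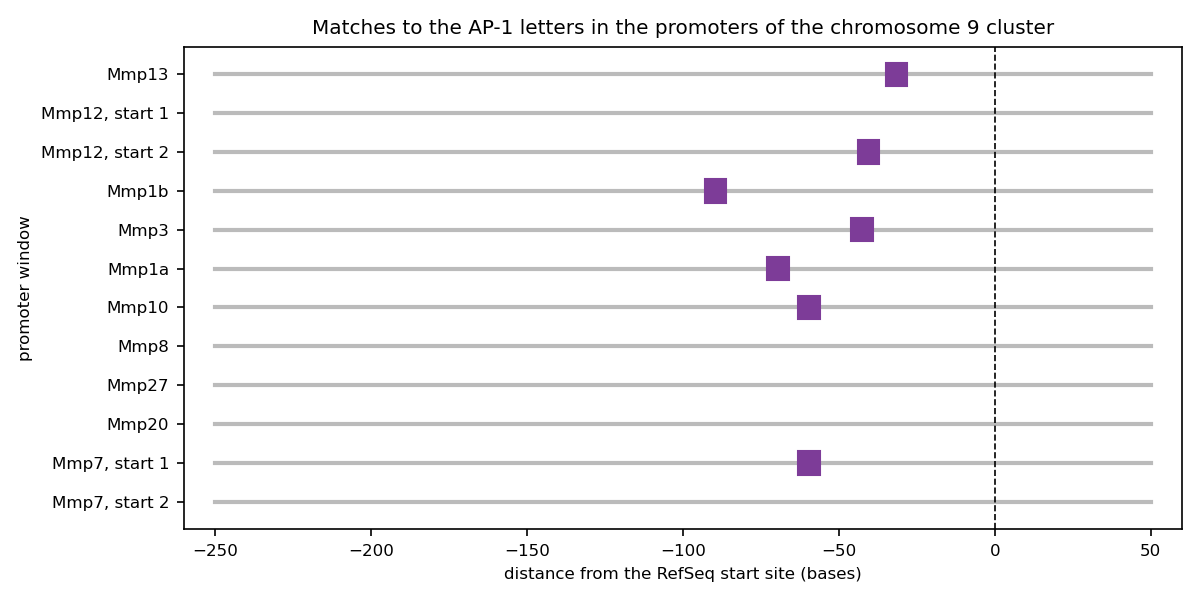
Position of the AP-1 letters (squares) in the promoter windows of the 10 genes of the chromosome 9 cluster, as the distance in bases from the RefSeq start (dashed line); genes with several listed starts have a line for each. The matches of 7 genes lie between 93 and 35 bases before the start.

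The other cluster genes gave smaller differences than Mmp13 and Mmp3. Mmp10, the second stromelysin, measured 130 to 135 FPKM in HFHG against 182 to 198 FPKM in low glucose, without overlap, and fell by 0.54 (SE 0.03, limma adjusted p = 6.87e-09). Mmp12, the macrophage elastase, measured 143 to 147 FPKM in HFHG against 119 to 126 FPKM in low glucose and rose by 0.25 (SE 0.03, limma adjusted p = 2.26e-06). The macrophage markers moved the other way from Mmp12, as 9 of the 11 tested fell, and the part of macrophages in its level was not tested. Mmp1b, a rodent relative of the interstitial collagenase, had 2.60 ± 0.281 FPKM in HFHG compared with 3.48 ± 0.338 FPKM in low glucose and fell by 0.41 (SE 0.09, limma adjusted p = 0.00189). Its value is uncertain, because its paralog Mmp1a may share reads with it, as the handling of such reads is not given, and its exons overlap those of Mmp12 on the opposite strand. Mmp8, the neutrophil collagenase, measured 20.3, 20.8, 18.7 and 19.8 FPKM in HFHG against 19.8, 19.1, 18.8 and 18.4 FPKM in low glucose, with overlap and a difference of 0.06 (limma adjusted p = 0.192). Of the neutrophil genes, S100a8 fell, Camp rose, and S100a9, Ly6g, Elane and Mpo were near 0. Mmp27 measured 0.968 ± 0.209 and 1.18 ± 0.193 FPKM, with a difference of -0.27 (95% interval -0.60 to 0.07, limma adjusted p = 0.145), and it passed the test without HFHG replicate 2 (-0.39, limma adjusted p = 0.0304) or without low glucose replicate 4 (-0.37, limma adjusted p = 0.0499).

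**Figure D3:**
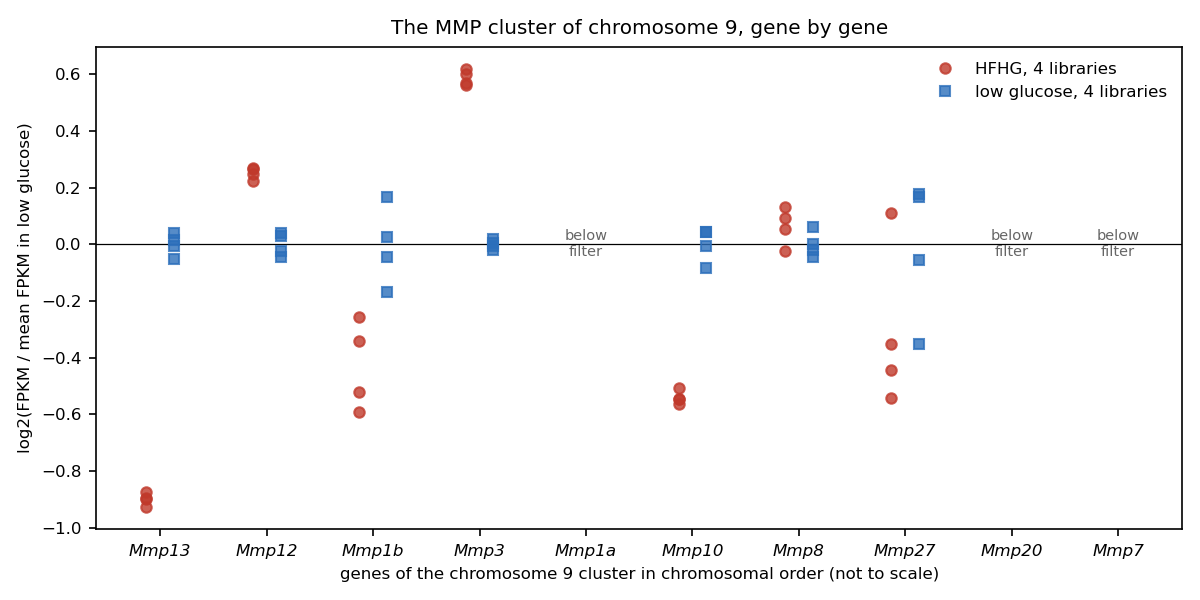
Log2 ratio of each library's FPKM to the low glucose mean for the genes of the chromosome 9 MMP cluster in chromosomal order, with HFHG as circles and low glucose as squares. Mmp12 and Mmp3 lie above 0 in all 4 HFHG libraries, Mmp13, Mmp1b and Mmp10 below it, and the groups overlap for Mmp8 and Mmp27.

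The gelatinases split. Mmp2 (chr8:92827290-92853421), which mesenchymal cells make constitutively, measured 257, 266, 258 and 260 FPKM in HFHG compared with 201, 199.6, 200.1 and 208 FPKM in low glucose. The HFHG libraries were all higher, and Mmp2 rose by 0.36 (SE 0.02, limma adjusted p = 2.05e-08). Of the 6 mesenchymal markers, 5 rose as well, with a median difference of 0.55 over the list, and their part in the Mmp2 level was not tested. Mmp9, the inducible gelatinase of leukocytes and osteoclasts, lay far lower, at 0.806 ± 0.112 FPKM in HFHG against 1.24 ± 0.214 FPKM in low glucose. It fell by 0.57 (SE 0.14, limma adjusted p = 0.00309), and its groups did not overlap. Of the 11 tested macrophage markers, 9 were lower in HFHG too, while Cd14 rose and Ptprc did not pass the test. The osteoclast enzyme Acp5 was also lower (2.33 ± 0.175 against 3.25 ± 0.162 FPKM). The other 4 osteoclast markers were below the filter. Among these, Calcr, Ocstamp and Dcstamp were near 0 in both media. Oscar had 0.205 ± 0.0689 FPKM in HFHG against 0.149 ± 0.0692 FPKM in low glucose. The part of these cells in the Mmp9 level was not tested. Mmp11, a secreted protease that furin activates inside the cell, measured 24.8, 26.8, 26.2 and 26.0 FPKM in HFHG against 39.6, 40.4, 38.3 and 41.4 FPKM in low glucose, without overlap, and fell by 0.62 (SE 0.04, limma adjusted p = 8.57e-09). Its exons overlap those of Chchd10 on the opposite strand, which fell from 88.8 to 14.6 FPKM, and whether the counting used strand is not given in the sources used here.

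Of the 6 membrane-type MMPs, 4 were tested, and Mmp24 and Mmp25 were below the filter. Mmp15, Mmp16 and Mmp17 rose and Mmp14, the highest, fell slightly, where 34.0% of all tested genes rose and 30.8% fell. Mmp14 (chr14:54431598-54442456), the activator of pro-Mmp2 at the cell surface, measured 156, 155, 152 and 154 FPKM in HFHG against 176, 172, 175 and 177 FPKM in low glucose. The groups did not overlap, and it fell by 0.18 (SE 0.02, limma adjusted p = 7.74e-06). Mmp16 (chr4:17853072-18117479), another activator of pro-Mmp2, measured 7.07, 7.63, 7.74 and 7.50 FPKM in HFHG compared with 2.04, 2.98, 2.82 and 2.03 FPKM in low glucose. Every HFHG library lay far above every low glucose library, and Mmp16 rose by 1.58 (SE 0.11, limma adjusted p = 8.61e-08). Mmp15 (chr8:95352296-95374293) had 1.75, 1.77, 1.89 and 1.96 FPKM in HFHG against 0.789, 0.835, 0.490 and 0.598 FPKM in low glucose and rose by 1.34 (SE 0.14, limma adjusted p = 3.52e-06). The HFHG values again all lay above the low glucose values. The GPI-anchored Mmp17 measured 1.39, 1.16, 1.33 and 1.24 FPKM in HFHG against 0.742, 0.732, 0.662 and 0.741 FPKM in low glucose, without overlap, and rose by 0.75 (SE 0.10, limma adjusted p = 4.06e-05). The rise of Mmp15, Mmp16 and Mmp17 left them far below Mmp14 in level.

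Of the MMPs outside these classes, 4 of the 5 tested rose, where 34.0% of all tested genes rose, and Mmp27 did not pass the test. Mmp19 (chr10:128790910-128800827), a secreted MMP that cuts basement membrane proteins, measured 34.4, 35.6, 37.3 and 37.6 FPKM in HFHG compared with 19.6, 18.5, 18.5 and 19.2 FPKM in low glucose. The groups were far apart, and Mmp19 rose by 0.93 (SE 0.04, limma adjusted p = 3.27e-10). Mmp28, epilysin, measured 1.80, 1.79, 1.90 and 1.53 FPKM in HFHG against 0.940, 0.917, 1.18 and 1.18 FPKM in low glucose, without overlap, and rose by 0.69 (SE 0.11, limma adjusted p = 0.000172). Mmp23, which is first made as a membrane protein, rose from 7.01 ± 0.463 to 9.99 ± 0.298 FPKM, by 0.51 (SE 0.05, limma adjusted p = 3.54e-06). Mmp12, described with its cluster, was the fourth. Exons of Mmp19 and Mmp28 overlap those of other genes on the opposite strand (Tmem198b and 1700020L24Rik), both of which were lower in level.

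**Figure D4:**
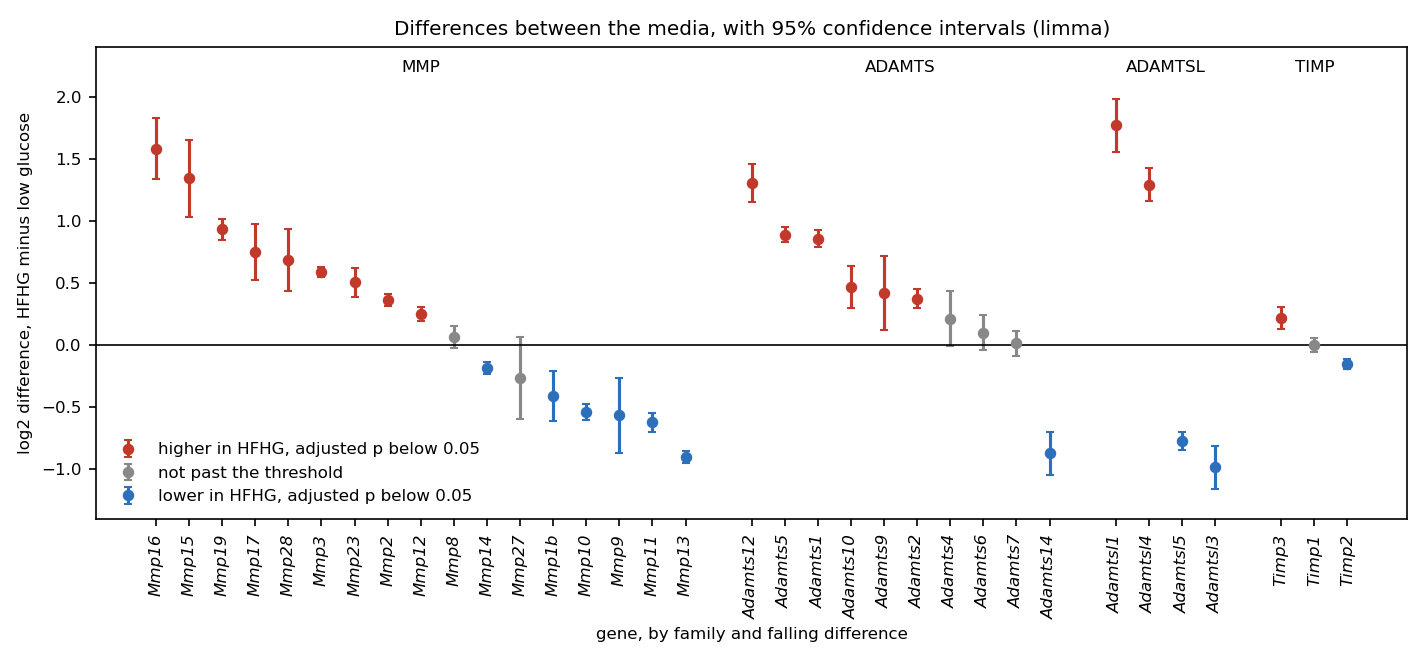
Difference between the media for each tested member on the log2(FPKM + 0.1) scale, with 95% confidence intervals from limma, by family and falling difference; red marks members that rose in HFHG, blue those that fell and grey those not past the threshold. The MMP, ADAMTS, ADAMTSL and TIMP families each hold members on both sides of 0 on the deposited scale, on which the directions of Timp1 and Timp2 depend.

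Of the 10 tested ADAMTS genes, 6 rose, Adamts14 fell, and 3 did not pass the test, where 34.0% of all tested genes rose and 30.8% fell. The 70% that changed lay near the 64.8% of all tested genes. The median difference of the tested ADAMTS genes was 0.40. Adamts5, the major aggrecanase of mouse cartilage, was the highest, with 190, 193, 194 and 201 FPKM in HFHG against 106, 107, 106 and 101 FPKM in low glucose. Its HFHG libraries all lay far above the low glucose libraries, and it rose by 0.89 (SE 0.03, limma adjusted p = 2.93e-11). Adamts1, a versican-cutting protease with anti-angiogenic repeats, measured 64.1, 65.0, 65.1 and 67.8 FPKM in HFHG compared with 36.6, 37.1, 36.2 and 34.4 FPKM in low glucose. It rose by nearly the same amount, 0.86 (SE 0.03, limma adjusted p = 1.48e-10). Adamts1 and Adamts5 are neighbours on chromosome 16 (chr16:85793827-85803113 and chr16:85858157-85901125), with 55.0 kb between them. HFHG replicate 4 was the highest and low glucose replicate 4 the lowest library of its medium for both genes.

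The other proteoglycan-cutting members were less expressed. Adamts9 had 1.17, 1.23, 1.09 and 1.05 FPKM in HFHG against 0.637, 1.03, 0.897 and 0.771 FPKM in low glucose. The groups were close but did not overlap, and Adamts9 rose by 0.42 (SE 0.14, limma adjusted p = 0.0167), a call that was lost without low glucose replicate 1 (0.31, limma adjusted p = 0.0505). Adamts4, the other main aggrecanase, measured 3.79 ± 0.327 FPKM in HFHG compared with 3.27 ± 0.468 FPKM in low glucose, with overlap and a difference of 0.21 (95% interval -0.01 to 0.44, limma adjusted p = 0.0825). Without low glucose replicate 1 its difference was 0.27 and passed the test (limma adjusted p = 0.0428). Adamts15 had 43 to 63 reads in HFHG against 57 to 76 in low glucose, and Adamts8 and Adamts20 had a trace of reads.

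The procollagen N-proteinases, which trim fibrillar procollagens so that fibrils can form, moved in opposite directions. Adamts2, the main one, measured 20.5, 21.9, 21.9 and 21.6 FPKM in HFHG against 16.2, 17.0, 16.2 and 16.8 FPKM in low glucose, and rose by 0.37 (SE 0.04, limma adjusted p = 1.45e-06). Adamts14 (chr10:61197112-61273419) measured 1.98, 1.91, 2.06 and 1.92 FPKM in HFHG compared with 4.07, 3.44, 3.32 and 3.92 FPKM in low glucose. All its HFHG libraries lay below all low glucose libraries, and it fell by 0.87 (SE 0.08, limma adjusted p = 9.58e-07). Adamts3 was below the filter but had 117, 101, 112 and 120 reads in HFHG against 52, 54, 37 and 40 reads in low glucose, 2.39 times the FPKM (exact two-sided permutation p = 0.0286, the smallest that 4 against 4 libraries allow). This p is not adjusted, and any gene whose media do not overlap reaches it, as 59.2% of all tested genes would. Of the other members below the filter, only Adamts19 reached it, on a trace of reads. Adamts2 was the highest of the class in both media.

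Adamts12 (chr15:11064773-11349232), which cuts the cartilage and tendon protein COMP, measured 6.60, 7.18, 7.51 and 6.68 FPKM in HFHG compared with 2.69, 3.08, 2.64 and 2.68 FPKM in low glucose. The groups were well separated, and with a rise of 1.31 (SE 0.07, limma adjusted p = 4.37e-09) it changed the most of the tested ADAMTS genes. Its relative Adamts7, which also cuts COMP, measured 10.3, 10.7, 10.1 and 10.2 FPKM in HFHG against 10.5, 10.2, 10.6 and 9.60 FPKM in low glucose. These values overlapped, with a difference of 0.01 (95% interval -0.08 to 0.11, limma adjusted p = 0.8) whose sign depended on scaling. Adamts10, a microfibril-associated member, rose from 2.15 ± 0.178 to 3.01 ± 0.131 FPKM, by 0.47 (SE 0.08, limma adjusted p = 0.00018), whereas its closest relative Adamts6 gave 3.58 ± 0.181 and 3.33 ± 0.163 FPKM in HFHG and low glucose and a difference of 0.10 (95% interval -0.04 to 0.24, limma adjusted p = 0.195).

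All 4 tested ADAMTSL genes changed, 2 in each direction, where 34.0% of all tested genes rose and 30.8% fell. Adamtsl1 (punctin, chr4:85513852-86428390) measured 2.01, 1.85, 2.101 and 1.89 FPKM in HFHG compared with 0.501, 0.524, 0.480 and 0.510 FPKM in low glucose. The groups were far apart, and the rise of 1.77 (SE 0.10, limma adjusted p = 6.88e-09) was the largest of all tested members. Adamtsl4 (chr3:95676201-95687927), a fibrillin-binding protein needed for the lens zonule, measured 11.4, 11.7, 12.1 and 10.3 FPKM in HFHG against 4.64, 4.43, 4.92 and 4.33 FPKM in low glucose and rose by 1.29 (SE 0.06, limma adjusted p = 1.64e-09). Lower levels were found for the other two. Adamtsl5 (chr10:80339793-80349030), also a microfibril protein, measured 19.3, 18.5, 19.5 and 18.9 FPKM in HFHG compared with 31.5, 32.6, 33.7 and 32.5 FPKM in low glucose and fell by 0.77 (SE 0.03, limma adjusted p = 6.5e-10). Adamtsl3 (chr7:82335399-82614450) measured 2.54, 2.39, 2.34 and 2.19 FPKM in HFHG against 4.86, 5.25, 4.87 and 4.16 FPKM in low glucose and fell by 0.98 (SE 0.08, limma adjusted p = 2.83e-07). For each of the 4 genes, no HFHG library lay within the range of the low glucose libraries.

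The TIMP inhibitors changed little, and the direction of Timp1 and Timp2 depended on the scaling of the libraries. Timp2 (chr11:118301061-118355411), which inhibits most MMPs and also takes part in the activation of pro-Mmp2, measured 771, 790.3, 778 and 777 FPKM in HFHG compared with 863, 854, 858 and 879.5 FPKM in low glucose. The values did not overlap, and Timp2 fell by 0.15 (SE 0.02, limma adjusted p = 1.91e-05) on the deposited scale but was higher in HFHG by 0.15 after quantile normalization (limma adjusted p = 8.56e-05). Timp1, a secreted inhibitor induced by cytokines, measured 675, 635, 660.4 and 640.1 FPKM in HFHG against 649.5, 630.4, 666 and 668 FPKM in low glucose, with overlap and a difference of -0.0016 (95% interval -0.06 to 0.06, limma adjusted p = 0.96). With the libraries rescaled to the same sum, Timp1 was higher in HFHG by 0.06 (limma adjusted p = 0.0215), and after quantile normalization by 0.33 (limma adjusted p = 8.34e-09). Timp3, the matrix-bound inhibitor that also blocks aggrecanases, measured 20.9, 21.8, 20.5 and 22.7 FPKM in HFHG compared with 19.0, 18.8, 18.3 and 17.7 FPKM in low glucose and rose by 0.22 (SE 0.04, limma adjusted p = 0.000422). Timp3 shared exon positions with Syn3, a synapsin gene on the opposite strand that was near 0, and Timp4 had at most 26 reads in any library.

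Summed over families, the FPKM of the 19 ADAMTS genes was 305, 312, 312 and 322 in HFHG against 186, 188, 186 and 177 in low glucose, a ratio of means of 1.70. Most of this sum was Adamts5 and Adamts1. The MMP sum was 4467 ± 35.5 FPKM in HFHG against 4933 ± 64.8 FPKM in low glucose (ratio 0.906), and the groups did not overlap. The ADAMTSL sum was 34.8 ± 1.16 and 42.4 ± 1.19 FPKM (ratio 0.819), in which the fall of Adamtsl5 outweighed the rise of Adamtsl4 and Adamtsl1. The TIMP sum was 1453 ± 12.2 and 1536 ± 25.5 FPKM (ratio 0.946), and its ratio to the MMP sum was 0.325 ± 0.00158 in HFHG and 0.311 ± 0.00868 in low glucose. These sums are descriptions without a test. The FPKM of all genes summed to between 402404 and 409466 in HFHG and between 416926 and 433432 in low glucose, and the family sums are not corrected for this.

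**Figure D5:**
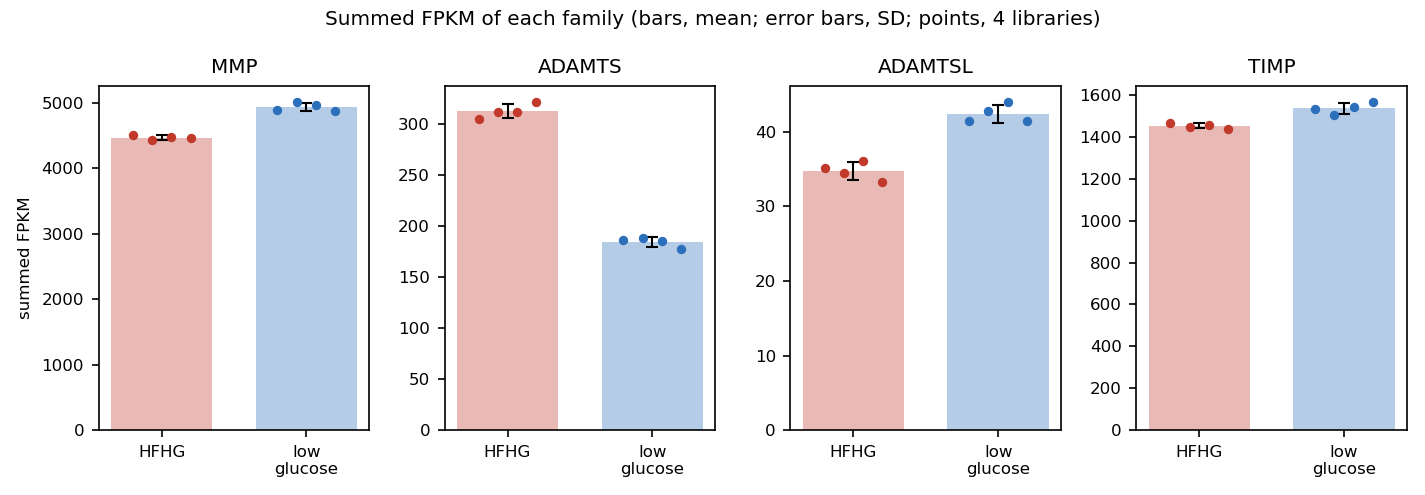
Summed FPKM of each family (bars, mean; error bars, SD; points, 4 libraries of each medium), each panel with its own axis from 0. The ADAMTS sum was 1.70 times as high in HFHG as in low glucose, while the MMP, ADAMTSL and TIMP sums were lower in HFHG on the deposited scale, on which the TIMP directions depend.

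Of the 17 members below the filter, 12 had at most 30 reads in every library: Adamts8, Adamts13, Adamts16, Adamts17, Adamts18, Adamts19, Adamts20, Adamtsl2, Mmp7, Mmp20, Mmp21 and Timp4. Without Timp4, these had between 3 and 55 reads over all 8 libraries and at most 0.0885 FPKM. Adamts19 had 1, 9, 1 and 2 reads in HFHG compared with 0 in each low glucose library, where a count of 0 allows up to 3 reads or at most 0.00888 FPKM, for counting error alone. The other 5 were Adamts3 and Adamts15 (above), Mmp1a, Mmp24 and Mmp25. Mmp1a summed to 74 reads in HFHG against 111 in low glucose, Mmp24, a membrane-type MMP of neurons, to 231 and 212, and the GPI-anchored Mmp25 of leukocytes to 314 and 247. The FPKM of these last 3 overlapped between the media.

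Genes that act before and after the proteases were counted from lists of the wider pathway. Among regulators (activators, inhibitors and clearance receptors), 16 of 23 were tested, 11 rose and 4 fell, with a median difference of 0.38, where 34.0% of all tested genes rose and 30.8% fell. Plat, the tissue plasminogen activator, rose from 15.5 ± 1.02 to 82.4 ± 2.86 FPKM, by 2.41, while Plau, the urokinase, fell by 0.79 from 41.8 ± 1.70 to 24.2 ± 1.99 FPKM (limma adjusted p = 4.37e-13 and 4.15e-08). Reck, a membrane-anchored MMP inhibitor, rose from 9.14 ± 0.599 to 16.3 ± 0.848 FPKM, by 0.83 (limma adjusted p = 3.88e-08). The plasmin precursor Plg was near 0 in both media.

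Of the other matrix proteases, 18 of 24 were tested, 5 rose and 10 fell, with a median difference of -0.15. Ctsk, the collagen-cutting cathepsin K, fell by 1.80 from 344 ± 11.0 to 98.4 ± 2.36 FPKM (limma adjusted p = 1.23e-13). Adam23, an integrin-binding member without protease activity, rose by 1.53 (limma adjusted p = 5.29e-11) and Htra3, a serine protease, by 1.35 (limma adjusted p = 5.43e-09). Of the substrates, 15 of 20 were tested, 10 rose and 2 fell, with a median difference of 0.47. Cilp, a cartilage and tendon matrix protein, rose by 3.63 from 0.465 ± 0.0906 to 6.83 ± 0.319 FPKM, and the fibrillar collagens Col5a1 and Col1a1 by 1.45 and 1.36 (limma adjusted p = 4.16e-11, 5.01e-12 and 1.95e-13). Versican (Vcan) and fibronectin (Fn1) were the 2 that fell. Aggrecan (Acan), the substrate for which the aggrecanases are named, had 0.0296 ± 0.0122 FPKM in HFHG compared with 0.0308 ± 0.0185 FPKM in low glucose, beside 194 ± 4.72 and 105 ± 3.01 FPKM of Adamts5. The same shares of all tested genes, 34.0% higher and 30.8% lower, stand behind the counts of these 2 lists, which were chosen with earlier results known.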

How the data were processed

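The samples were 8 mRNA libraries made with a stranded kit, 4 per medium, grouped by the sample labels. The authors deposited FPKM values for 19301 genes, with replicates kept apart. The submitters' processing notes list HISAT2 2.1.0 and mm10. The counting program, annotation, use of strand and filters are not given in the sources used here, so that the paralogs Mmp1a and Mmp1b and genes with exons overlapping on opposite strands are uncertain.

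Reads behind each FPKM were recovered as whole numbers (within 1e-07 reads) for 19300 genes (99.99%). Totals were 35385644 to 37362725 reads in HFHG against 34308108 to 36308533 in low glucose. limma 3.58.1 in R 4.3.3 (lmFit, eBayes with trend) was run on log2(FPKM + 0.1) of 11710 genes with Benjamini-Hochberg adjustment. A fold change on this scale understates the change of low genes. Genes below the filter were compared by an exact two-sided permutation test over 70 arrangements. Limits from a count of 0 cover counting error alone. On simulated data, 98 of 100 genes changed by 0.58 on the log2 scale and 99 of 99 changed by 1 were found among 11626. A further 10 unchanged genes were called. Unlike the real data, the simulation left most genes unchanged and gave all genes and libraries the same extra spread.

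Full statistics were given for members past the threshold with differences above 0.58, for the 3 highest of each family, for every TIMP and for members whose sign depends on scaling, and of each wider list for the 3 genes that changed most. The members and lists were chosen with earlier results of these data known. The alternatives were other pseudocounts and filters, 3 scalings, a replicate block, each library left out and, chosen after seeing the data, limma's voom on the recovered reads. Replicate numbers did not pair the libraries. Gene positions are from the GRCm38 annotation and promoters from RefSeq (GRCm38.p6).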

Additional observations from a re-analysis of the deposited data

Results flagged for a closer look

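In 2 of 68 groups of 4 libraries, 1 library lay far from the other 3 by Dixon's test, which chance flags in about 1 of 20 groups. Adamts12 in low glucose measured 3.07 FPKM in replicate 2 and between 2.64 and 2.69 FPKM in the other replicates. Mmp17 in low glucose measured 0.662 FPKM in replicate 3 and between 0.732 and 0.742 FPKM in the others. Both genes were higher in every HFHG library than in these libraries.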

How the results depend on the processing

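Of the 34 tested members, 27 kept their direction and their side of the threshold in all 17 alternatives. Over these, between 18 and 21 members rose and 10 or 11 fell, and voom on the recovered reads called 7782 genes of the whole table against 7592 by limma on FPKM. With a pseudocount of 1, 3 members in place of 5 rose by more than 1 on the log2 scale. TIMP calls depended on scaling: 2 TIMP genes rose with libraries rescaled to the same sum, and 3 rose and 0 fell after quantile normalization. Signs turned for Timp1 with the same sum (0.0578) and after quantile normalization (0.33), for Timp2 after quantile normalization (0.15), and for Adamts7 after median-ratio scaling and quantile normalization (-0.0024 and -0.0013). Leaving out 1 library moved Timp1 between -0.0187 and 0.0113 and Adamts7 between -0.0168 and 0.0319. Past the threshold in some alternatives were Adamts4 (same sum, limma adjusted p = 0.0383; voom, 0.0218; without low glucose replicate 1, 0.0428), Mmp8 (same sum, 0.027) and Mmp27 (quantile normalization, 0.0303; without HFHG replicate 2, 0.0304; without low glucose replicate 4, 0.0499), while Adamts9 was lost after quantile normalization (0.0936) and without low glucose replicate 1 (0.0505). The cause was not tested. The scalings moved the median of all tested genes by 0.06, -0.02 and -0.04. The replicate block left 18 members higher and 10 lower, with 7342 genes called over the whole table, and same-numbered libraries did not deviate together (correlations from -0.0736 to -0.00558), so the pairing has no basis in these data. The 12 members with at most 30 reads in every library were not tested by limma, and depth limits what can be said of them.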
